A study of Mus musculus with 6 samples.

Results

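The AP-1 and immediate early factors described here are 10 named genes: Fos, Fosb, Fosl1, Fosl2, Jun, Junb, Jund, Atf3, Egr1 and Egr2. They were taken as a fixed list, with every probe set of an Affymetrix mouse expression array that the platform annotation assigns to 1 of them alone. That gave 15 probe sets out of 45101 on the array, and 10 genes out of 18194 named. AP-1 is a transcription factor built as a pair of basic leucine zipper proteins. JUN proteins can pair with each other, whereas FOS proteins need a JUN partner to bind DNA. Many FOS, JUN and EGR genes are immediate early genes, which are transcribed within minutes of a growth factor, cytokine or stress signal without new protein synthesis, largely through MAP kinases acting on factors such as SRF, ELK and CREB. In the peripheral nervous system JUN is known for its role in Schwann cells after injury, and EGR2 for driving myelination.

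Expression was compared between neurosphere cultures, free-floating spheres of dividing cells, derived from neural crest tissues of C57BL/6J mice. The group called rNCSC (3 arrays) came from dorsal root ganglia at embryonic day 12.5 and is described in the labels as reprogrammed in culture towards central nervous system (CNS) progeny. The group called pNCSC (3 arrays) came from the palate of 3 to 5 mice aged 6 to 8 weeks, which the labels describe as not taking on CNS progenitor markers. Both were passage 3 spheres in serum-free medium with basic FGF, EGF, heparin, N2 and B27, with 2 doses of basic FGF (20 or 40 ng/ml) and of B27 (1% or 3%) listed and not tied to a culture. Tissue, donor age and culture therefore change together and cannot be told apart. No uncultured or unstimulated cells are in the comparison, and it is not stated whether the 3 arrays of a group come from separate cultures, so a p-value covers the array-to-array spread alone, which may be technical.

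Values are log2 signals after GCRMA, a background correction and normalization of Affymetrix probes. Signals under 4 were treated as dim, and between 50.2% and 50.6% of probe sets reached 4 on each array. Across probe sets, Pearson's r was 0.988 to 0.996 within a culture and 0.833 to 0.844 between them, a description in which probe sets are not independent. The labelled identities were checked against marker lists. All 11 tested CNS progenitor markers were higher in rNCSC and all 10 mesenchymal markers were higher in pNCSC, with log2 summed signals of 16.31 to 16.44 against 9.83 to 10.45 and of 7.70 to 9.40 against 16.08 to 16.42, rNCSC first. The CNS progenitor markers were not all absent from pNCSC. Sox2 was at 9.97, 9.53 and 10.24 there, Nes at 6.43, 5.82 and 6.37 and Fabp7 at 4.14, 5.67 and 5.49. Likewise, the mesenchymal markers Pdgfra (8.94, 5.97 and 5.13) and Prrx1 (7.04, 5.04 and 7.58) were measured on every rNCSC array. Of 8 Schwann cell markers tested, 7 were higher in pNCSC, 1 of them Egr2 itself, and 1, Pou3f1, in rNCSC (summed signal 8.21 to 9.55 against 9.97 to 10.28). Among them, Sox10 lay under 4 on each rNCSC array and between 4.43 and 5.44 in pNCSC. Pou3f1 was at 8.80, 8.76 and 6.83 in rNCSC and 4.03, 3.95 and 4.06 in pNCSC (17.3-fold, limma adjusted p = 0.00038). Of 12 leukocyte and mast cell markers, 5 of the 6 tested were higher in pNCSC, and the log2 of their summed signal ran from 6.79 to 7.25 in rNCSC and from 11.61 to 12.47 in pNCSC. The defining leukocyte markers Ptprc, Csf1r, Itgam and Adgre1 were under 4 on all 6 arrays, whereas others, such as Cpa3 and Cd14, were measured in pNCSC alone. Kit, the tested marker that did not pass, was measured in both cultures (difference -0.27, limma adjusted p = 0.70). Its signals were 5.80, 4.98 and 4.05 in rNCSC and 4.25, 5.11 and 6.29 in pNCSC. On pNCSC replicates 1, 2 and 3, the mast cell protease gene Cpa3 was at 6.45, 10.53 and 11.82, the myeloid genes Cd14 and Trem2 at 11.19, 9.10 and 9.34 and at 8.02, 9.19 and 7.93, and the leukocyte gene Cd53 at 9.11, 7.21 and 7.92. Of 10 mural and endothelial markers, 4 of the 5 tested were higher in pNCSC, with a log2 summed signal of 7.59 to 9.19 in rNCSC and 14.56 to 14.87 in pNCSC, and the endothelial markers Pecam1, Cdh5, Kdr, Tek and Emcn were under 4 on all 6 arrays. Of 10 epithelial markers, 4 of the 6 tested were higher in pNCSC and 1, Krt10, in rNCSC (summed signal 8.84 to 9.15 against 9.31 to 10.43). Many of these markers were under 4 on every array of the lower culture and were tested through the other alone, which fixed their direction: 8 of the 11 CNS progenitor, 7 of the 10 mesenchymal, 5 of the 8 Schwann cell, 5 of the 6 leukocyte and mast cell, 3 of the 5 mural and endothelial and 3 of the 6 epithelial markers tested. The part of these cell types in the results below was not tested, and in bulk RNA fewer expressing cells and less RNA per cell cannot be told apart.

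Of the 10 factors, 7 were higher in pNCSC, 0 were higher in rNCSC, and Jun, Jund and Egr1 did not pass the test (limma, Benjamini-Hochberg adjusted p under 0.05). The cultures differ widely, and this background matters for the count: of 11722 genes tested, 73.3% passed, 33.1% with higher values in pNCSC and 40.2% with higher values in rNCSC. The 7 were Fos, Fosb, Fosl1, Fosl2, Junb, Atf3 and Egr2. All of these had no overlap between the 3 arrays of one culture and the 3 of the other, as had 35.2% of tested genes in that direction. Fosb, Fosl1 and Atf3 were under 4 on every rNCSC array and were tested only because of their signal in pNCSC, so a difference between the groups was built into their being tested. All 10 genes passed the filter on dim signal with 1 probe set or more. Among the 15 probe sets, 13 passed it, and 9 of those were higher in pNCSC and 0 in rNCSC, against 32.1% and 40.5% of the 21404 probe sets tested.

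**Figure D1:**
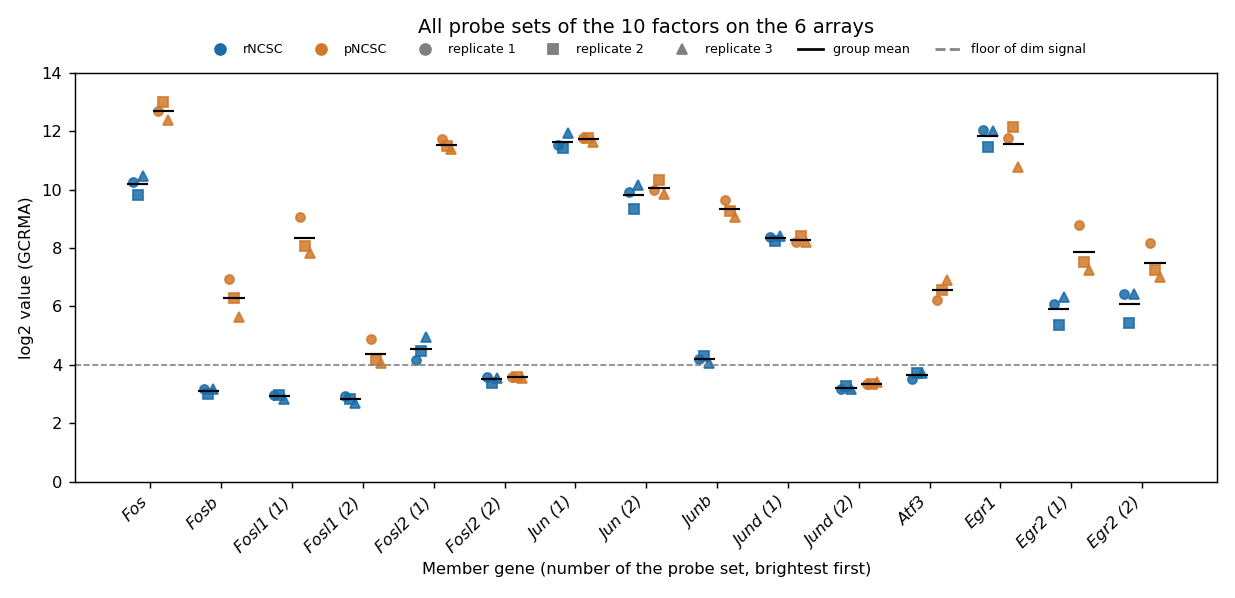
Log2 signal of all 15 probe sets of the 10 factors on each array, with rNCSC in blue and pNCSC in orange, marker shapes for replicates, black lines for group means and a dashed line at the floor of 4. Fos, Fosb, Fosl1, the brighter Fosl2 probe set, Junb, Atf3 and Egr2 separate the cultures, whereas Jun, the brighter Jund probe set and Egr1 overlap. The dim Jund probe set lies under the floor on all arrays, with a small gap between the cultures.

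FOS family genes encode the partners that give AP-1 its inducible component. Fos itself (probe set 1423100_at), the prototype immediate early gene, had log2 signals of 10.27, 9.83 and 10.48 on rNCSC replicates 1, 2 and 3 and of 12.68, 13.02 and 12.39 on pNCSC replicates 1, 2 and 3. The signal was thus well above the floor in both cultures and higher on every pNCSC array. The means were 10.19 ± 0.33 (SD, n = 3) and 12.69 ± 0.31, a 5.66-fold difference (rNCSC minus pNCSC -2.50 on the log2 scale, SE 0.23, limma adjusted p = 8.0e-05). Among all probe sets of an array, Fos stood between the 89.9th and 92.3rd percentile in rNCSC and between the 97.8th and 98.7th in pNCSC.

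Fosl2 (1437247_at), which encodes FRA-2, a FOS protein without the strong transactivation domain of FOS, had the largest difference of the 10. Its signals were 4.18, 4.46 and 4.94 on the rNCSC arrays and 11.74, 11.51 and 11.39 on the pNCSC arrays, near the floor in one culture and bright in the other. That is 129.6-fold higher in pNCSC (log2 difference -7.02, SE 0.21, limma adjusted p = 5.9e-07), a size exceeded by few genes, since 97.9% of tested genes differed by less. A further Fosl2 probe set (1422931_at) was under 4 on all 6 arrays, from 3.38 to 3.59, and showed no such gap. With the mean of both probe sets taken in place of the brighter one, the difference was -3.54 and still passed (limma adjusted p = 1.3e-06).

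Fosl1, the gene of the related protein FRA-1, was dim in rNCSC and clearly measured in pNCSC. The brighter probe set (1417487_at) was at 2.98, 2.98 and 2.82 in rNCSC and at 9.07, 8.07 and 7.84 in pNCSC, where replicate 1 stood highest. With rNCSC set to the floor, the signal of this probe set was at least 20.1-fold higher in pNCSC (limma adjusted p = 9.8e-06 on measured values). The weaker probe set (1417488_at) went the same way, from 2.67 to 2.93 in rNCSC and from 4.07 to 4.87 in pNCSC, a difference of -1.55 (SE 0.23, adjusted p = 0.00071 over probe sets). Its bound with rNCSC set to the floor was far smaller, at least 1.29-fold. The mean of both gave -3.48 (limma adjusted p = 3.7e-05).

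Fosb (1422134_at), a FOS family gene that also gives rise to the stable splice form known as delta-FosB, was at 3.17, 3.01 and 3.17 in rNCSC and at 6.92, 6.28 and 5.65 in pNCSC. No rNCSC array reached the floor and every pNCSC array passed it. Fosb was at least 4.87-fold higher in pNCSC (limma adjusted p = 0.000105), and a SD of 0.64 in pNCSC placed it above 94.3% of tested genes in spread within that culture. As for Fosl1, the highest pNCSC array was replicate 1.

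The JUN genes divided into Junb on one side and Jun and Jund on the other. Junb (1415899_at), often a brake on JUN-driven transcription, was at 4.20, 4.30 and 4.04 in rNCSC and at 9.63, 9.27 and 9.08 in pNCSC. The rNCSC arrays were barely over the floor and the pNCSC arrays were all more than 4 log2 units above them. Junb was 35.3-fold higher in pNCSC (log2 difference -5.14, SE 0.17, limma adjusted p = 8.0e-07).

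Jun (1417409_at), the principal DNA-binding partner of FOS proteins, was bright in both cultures, at 11.53, 11.43 and 11.95 in rNCSC and 11.76, 11.77 and 11.63 in pNCSC. The pNCSC values lay inside the range of the rNCSC values. The difference was -0.08 (SE 0.16, limma adjusted p = 0.65), with a 95% interval for the rNCSC to pNCSC ratio of 0.721 to 1.23. The other Jun probe set (1448694_at) was at 9.91, 9.34 and 10.16 in rNCSC and 9.99, 10.32 and 9.86 in pNCSC, a difference of -0.25 (SE 0.23, adjusted p = 0.36 over probe sets), again with overlapping groups. Jund (1449117_at), the JUN gene that is usually expressed steadily, was at 8.37, 8.25 and 8.42 in rNCSC and 8.22, 8.40 and 8.19 in pNCSC. The groups overlapped, the difference was 0.08 (SE 0.12, limma adjusted p = 0.57), and the interval of the ratio ran from 0.870 to 1.28. Its second probe set (1440265_at) was under 4 on all arrays, from 3.19 to 3.41, and was not tested. Its groups did not overlap, with pNCSC slightly higher (difference -0.14). These intervals leave out changes of the size seen for Fos or Junb, while a missed threshold does not show that the levels were equal.

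Atf3 (1449363_at), a stress-induced factor that pairs with JUN proteins, was at 3.52, 3.73 and 3.72 in rNCSC and at 6.22, 6.56 and 6.90 in pNCSC. It was thus dim on all rNCSC arrays and at least 5.90-fold higher in pNCSC (limma adjusted p = 1.7e-05). Its order among the pNCSC arrays differed from that of Fosb and Fosl1, with replicate 1 lowest.

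The zinc finger genes Egr1 and Egr2 gave different outcomes. Egr1 (1417065_at), which is induced by the same ERK and SRF route as Fos, was at 12.03, 11.47 and 11.99 in rNCSC and at 11.76, 12.14 and 10.79 in pNCSC. The signal was high on all arrays, between the 93.6th and 97.2nd percentile, with overlapping groups and pNCSC replicate 3 lowest. The difference was 0.27 (SE 0.36, limma adjusted p = 0.53), and the interval of the rNCSC to pNCSC ratio, 0.664 to 2.17, allows a change of about 2.17-fold. With array weights the difference became 0.89 and passed the test with higher values in rNCSC (limma adjusted p = 0.042). It turned to -0.12 without pNCSC replicate 3, with no call.

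Egr2, also known as Krox20, was moderate in rNCSC and higher in pNCSC on both probe sets. The first (1427682_a_at) was at 6.10, 5.37 and 6.31 in rNCSC and at 8.80, 7.52 and 7.25 in pNCSC, with pNCSC replicate 1 standing above the others. It was 3.81-fold higher in pNCSC (log2 difference -1.93, SE 0.45, limma adjusted p = 0.0068). The other (1427683_at) was at 6.42, 5.41 and 6.43 and at 8.17, 7.25 and 7.00, a difference of -1.38 (SE 0.39, adjusted p = 0.015 over probe sets). Without pNCSC replicate 1 the first probe set differed by -1.46 and still passed (limma adjusted p = 0.0062). Egr2 had a SD of 0.50 in rNCSC and 0.83 in pNCSC, where the median tested gene had 0.16 and 0.19.

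**Figure D2:**
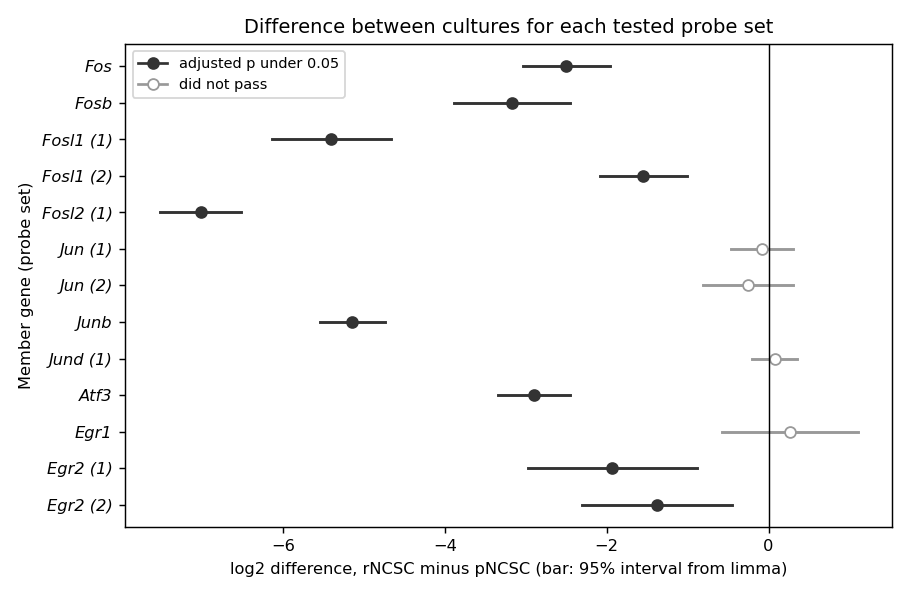
Log2 difference, rNCSC minus pNCSC, of the 13 probe sets that passed the filter on dim signal, with 95% intervals from limma; filled points passed the adjusted threshold of 0.05 and open points did not. Negative values mean higher signal in pNCSC, with Fosl2 (1) furthest out at -7.02 and Jun, Jund and Egr1 spanning 0.

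The highest pNCSC array was not the same for each gene. Of the 7 factors higher in pNCSC, 5 (Fosb, Fosl1, Fosl2, Junb and Egr2) were highest on pNCSC replicate 1, with Fos highest on replicate 2 and Atf3 on replicate 3. Over all 3879 genes higher in pNCSC, 39.7% were highest on replicate 1. Among markers of other cell types that were higher in pNCSC, 7 of 10 mesenchymal, 3 of 4 epithelial, 2 of 5 leukocyte and mast cell (Cd14 and Cd53), 2 of 7 Schwann cell and 1 of 4 mural and endothelial markers were highest on replicate 1, where Cpa3 was lowest. Their part in these values was not tested. In fits without pNCSC replicate 1 that kept the tested genes, all 7 factors passed. Where the filter was applied anew, leaving out any 1 pNCSC array took Fosb, Fosl1 and Atf3 out of the test and left 4 of the 7 called.

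To show the DNA in front of these genes, the 250 bases before the annotated start were read from RefSeq (GRCm38.p6) for 8 of the 10 genes. No window was read for Fosl1 or Egr1, so the DNA in front of them was not searched and nothing is said of their motifs. Searched were TGACTCA (the TRE, bound by FOS and JUN pairs), TGACGTCA (the full cyclic AMP response element, CRE), TGACGT (the CRE core, which the full CRE contains), GCGNGGGCG (an EGR site) and the CArG box bound by SRF, all on both strands, and TATAAA on the gene's strand. The windows below are shown because they hold a match or, for Jun, as the bright gene without a difference, each 5′ to 3′ on the gene's strand with matches in capitals.

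Fos, chr12:85473640-85473889, plus strand: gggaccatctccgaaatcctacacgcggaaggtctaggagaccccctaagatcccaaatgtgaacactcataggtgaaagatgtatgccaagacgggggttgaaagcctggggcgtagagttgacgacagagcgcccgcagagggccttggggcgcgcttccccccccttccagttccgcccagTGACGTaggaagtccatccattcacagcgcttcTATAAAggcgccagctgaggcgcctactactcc

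Fosb, chr7:19310046-19310295, minus strand: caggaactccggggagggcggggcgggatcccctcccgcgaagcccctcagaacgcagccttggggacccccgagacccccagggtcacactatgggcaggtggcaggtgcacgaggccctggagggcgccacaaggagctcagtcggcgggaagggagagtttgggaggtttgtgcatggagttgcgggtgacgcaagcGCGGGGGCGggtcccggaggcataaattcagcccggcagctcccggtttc

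Fosl2, chr5:32136222-32136471, plus strand: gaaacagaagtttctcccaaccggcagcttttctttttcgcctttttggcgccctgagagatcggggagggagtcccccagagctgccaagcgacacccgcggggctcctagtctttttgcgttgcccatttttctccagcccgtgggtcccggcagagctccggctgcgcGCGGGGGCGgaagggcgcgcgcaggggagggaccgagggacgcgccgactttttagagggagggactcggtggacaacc

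Atf3, chr1:191183334-191183583, minus strand: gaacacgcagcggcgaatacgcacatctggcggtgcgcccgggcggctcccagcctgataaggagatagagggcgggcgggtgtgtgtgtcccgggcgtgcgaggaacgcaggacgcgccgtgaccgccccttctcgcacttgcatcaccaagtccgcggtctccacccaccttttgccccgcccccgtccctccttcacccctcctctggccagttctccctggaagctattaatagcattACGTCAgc

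Egr2 (the third of 5 listed starts), chr10:67537619-67537868, plus strand: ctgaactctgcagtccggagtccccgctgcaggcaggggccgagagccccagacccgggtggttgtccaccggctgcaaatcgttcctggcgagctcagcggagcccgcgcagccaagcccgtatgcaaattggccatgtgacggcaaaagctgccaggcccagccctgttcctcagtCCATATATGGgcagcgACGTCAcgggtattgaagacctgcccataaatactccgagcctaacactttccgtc

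Jun, chr4:95052223-95052472, minus strand: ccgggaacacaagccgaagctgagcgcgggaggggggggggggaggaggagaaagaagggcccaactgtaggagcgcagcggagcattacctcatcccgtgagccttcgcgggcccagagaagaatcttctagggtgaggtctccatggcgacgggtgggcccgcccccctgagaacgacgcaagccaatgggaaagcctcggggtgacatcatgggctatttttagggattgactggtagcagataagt

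The capitals mark a CRE core 66 to 61 bases before the start of Fos and 8 to 3 bases before that of Atf3, and a TATAAA run 33 to 28 bases before that of Fos. An EGR site lies 50 to 42 bases before the start of Fosb and 79 to 71 bases before that of Fosl2. Egr2 has a CArG box 72 to 63 bases and a CRE core 56 to 51 bases before the start shown, and 4 of its 5 listed windows (3 of which overlap one another) hold a CArG box. The Jun, Junb and Jund windows held no exact match to the 6 motifs, and no window of these 8 genes held TGACTCA or the full CRE. Near matches, such as TGACATCA in the Jun window, and sites further upstream were not searched. Over all 32851 windows of that length, a CRE core was found in 6.47%, an EGR site in 4.70%, a CArG box in 1.47%, TATAAA in 7.59%, TGACTCA in 4.46% and the full CRE in 1.55%. These matches describe letters in a short window, and no binding was measured.

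The remaining genes of the pathway were taken as whole lists. Among 8 tested other bZIP partners of FOS and JUN, 5 were higher in pNCSC (Maf, Maff, Mafg, Mafk and Batf; 62.5%, against 33.1% of all genes) and 1 in rNCSC (12.5%, against 40.2%), with a median log2 difference of -1.49 against 0.12 over all tested genes. The small MAF proteins lack a transactivation domain of their own. Mafg was at 8.59 ± 0.34 in rNCSC and 10.47 ± 0.25 in pNCSC (3.68-fold, limma adjusted p = 0.00024) and Mafk was at least 3.08-fold higher in pNCSC. Batf, a partner of JUN in immune cells, did not reach 4 on any rNCSC array and was at least 2.80-fold higher in pNCSC, through which alone it was tested. The gene higher in rNCSC was Jdp2, a JUN dimerization partner known as a repressor (1.75-fold, adjusted p = 0.0044). Atf2 and Atf4 did not pass, with differences of 0.15 and -0.39.

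In the rest of the EGR family, Egr3, an immediate early zinc finger gene, was at 5.90, 6.19 and 6.95 in rNCSC and at 12.22, 12.09 and 11.82 in pNCSC, 51.9-fold higher in pNCSC (log2 difference -5.70, SE 0.28, limma adjusted p = 4.5e-06). The co-repressor gene Nab1, whose protein binds EGR1 and EGR2, was 2.00-fold higher in pNCSC (adjusted p = 0.00035). Nab2 did not pass (difference -0.41, adjusted p = 0.090), and Egr4 was under 4 on all arrays. Of the genes known to depend on EGR2 in Schwann cells, 8 were on the array under these names and 4 were tested. Higher in pNCSC were 2 of the 4 (50%, against 33.1% of all genes), and 0 were higher in rNCSC. The 2 were the myelin protein gene Ncmap (at least 10.03-fold) and Pmp22 (3.81-fold, limma adjusted p = 0.024). Pllp and Dhh did not pass (limma adjusted p = 0.40 and 0.11). Mag, Gjb1 and Cldn19 were under 4 on all 6 arrays, and Mbp reached 4 on 2 rNCSC arrays and on no pNCSC array. Ncmap was under 4 on every rNCSC array and was tested through pNCSC alone. Without rNCSC replicate 3, or without pNCSC replicate 1, 2 or 3, only 1 of the 4 was called.

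Most other immediate early genes had the direction of Fos. Higher in pNCSC were 35 of 46 tested (76.1%, against 33.1% of all genes) and higher in rNCSC 5, with a median difference of -1.96 against 0.12. Ptgs2, which encodes the inducible cyclooxygenase, had a mean of 2.66 ± 0.03 in rNCSC and of 13.64 ± 0.28 in pNCSC, which is 798-fold or more (limma adjusted p = 3.7e-08). The list holds 2 genes under 4 on every rNCSC array, Ptgs2 among them, which entered the test through pNCSC alone. Cebpd, an acute phase transcription factor, was 229-fold and Klf4, a Kruppel-like factor, 172-fold higher in pNCSC. Among members picked after their values were seen, the orphan receptor genes Nr4a1 and Nr4a2 were 22.3-fold and 119-fold higher, the MAP kinase phosphatase gene Dusp1 17.2-fold, the mRNA decay factor gene Zfp36 35.7-fold and the cytokine signalling inhibitor gene Socs3 120-fold. The 5 genes higher in rNCSC were Myc (11.0-fold, adjusted p = 1.5e-05), Klf10 (3.95-fold), Homer1 (3.06-fold), Gadd45g and Plk2. Btg2, Nr4a3, Zfp36l1, Trib1, Tsc22d1 and Hbegf did not pass, and Arc and Npas4, which are induced by neuronal activity, were under 4 on all arrays.

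Textbook AP-1 targets lay on the same side. Of 23 tested, 21 were higher in pNCSC (91.3%, against 33.1% of all genes) and 0 in rNCSC, with a median difference of -4.37, or -3.51 with dim values set to 4. The list holds 13 genes under 4 on every rNCSC array, which entered the test through pNCSC alone. The smallest adjusted p of the list belonged to Mmp3 (at least 2033-fold) and Mmp1a (at least 147-fold), which encode secreted matrix proteases. Next by adjusted p was Timp1 (at least 671-fold), which encodes an inhibitor of such proteases. The order by fold differed, with Mmp13 (at least 923-fold) above Timp1 and Mmp1a. The cyclin gene Ccnd1 was at 12.99 ± 0.14 in rNCSC and 12.91 ± 0.12 in pNCSC and did not pass (adjusted p = 0.60), nor did the EGF family gene Hbegf (difference -0.76, adjusted p = 0.11). Of the 21, 15 (71.4%) were highest on pNCSC replicate 1, as were 25 of the 35 other immediate early genes higher in pNCSC and 7 of the 10 mesenchymal markers. The matrix genes of this list are also expressed by mesenchymal cells, whose markers differed in the same direction, and the part of cell type was not tested.

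**Figure D3:**
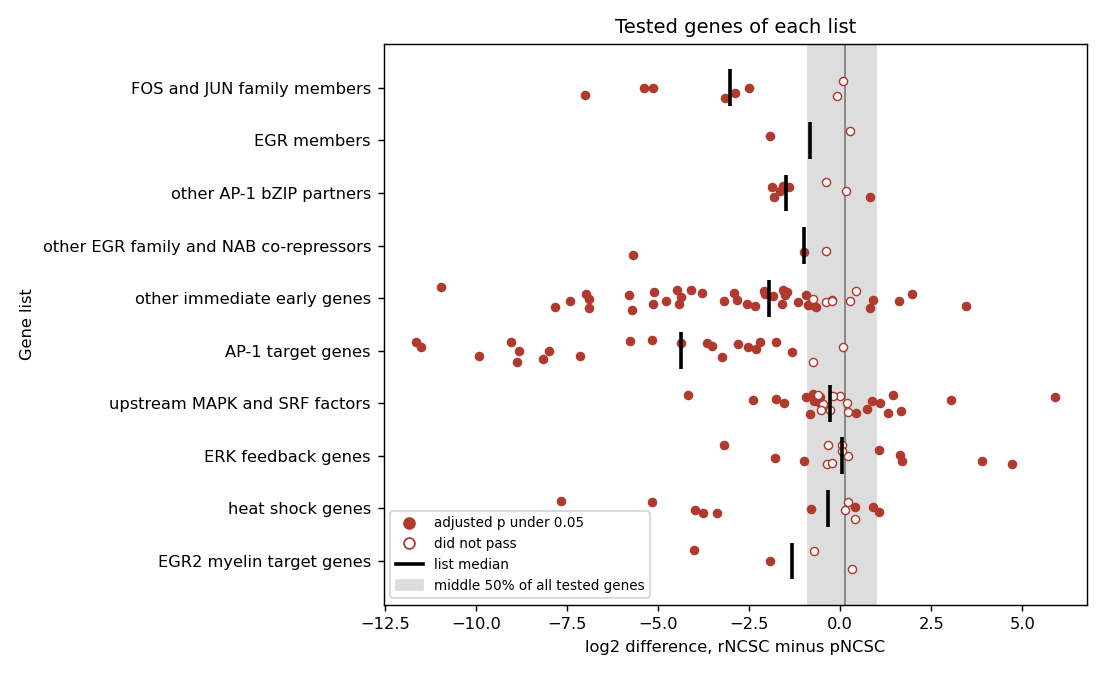
Log2 difference, rNCSC minus pNCSC, of each tested gene in 10 lists, with filled points for adjusted p under 0.05, open points for genes that did not pass, black bars for list medians, a grey line at the median of all tested genes (0.12) and a grey band over their middle 50%. The AP-1 target and immediate early lists reach far to the left (higher in pNCSC), while the MAP kinase and ERK feedback lists lie around 0.

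The kinases and factors upstream of these genes were called about as often as genes in general. Among 27 tested genes, pNCSC had the higher signal for 10 (37.0%, against 33.1% of all genes) and rNCSC for 9 (33.3%, against 40.2%), while 8 missed the threshold, with a median difference of -0.27. Map3k5, an upstream kinase of the JNK and p38 routes (at least 18.1-fold), Mapk9, which encodes JNK2 (5.30-fold), and the ETS factor gene Elk3 (3.43-fold) led towards pNCSC. Mapk10, the neural JNK3 gene, was at 8.78 ± 0.26 in rNCSC and under 4 on all pNCSC arrays (at least 27.5-fold, limma adjusted p = 5.1e-07). It was tested through rNCSC alone, which fixed its direction. Map3k1 (8.17-fold) and Nras (2.73-fold) were also higher in rNCSC. The SRF gene Srf differed by -0.27 (adjusted p = 0.15) and Elk1 by -0.01 (adjusted p = 0.97), neither passing, whereas Creb1 was 2.48-fold higher in rNCSC. These are transcript levels, and kinase activity was not measured.

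Genes known to be induced by ERK signalling as feedback were called in both directions. Among 14 tested genes, rNCSC had the higher signal for 5 (35.7%, against 40.2% of all genes) and pNCSC for 3 (21.4%, against 33.1%), shares not far from those of all genes, while 6 missed the threshold, with a median of 0.05. Etv5 (3.25-fold), Spry1 (14.9-fold), Il17rd (26.2-fold), Etv4 (3.09-fold) and Spry2 (2.09-fold), which encode ETS factors and inhibitors of FGF signalling, were higher in rNCSC. Higher in pNCSC were the EGF receptor inhibitor gene Errfi1 (9.11-fold, limma adjusted p = 0.00026), the ERK phosphatase gene Dusp5 (at least 3.29-fold) and Spry3 (2.00-fold). Dusp5 was under 4 on every rNCSC array and was tested through pNCSC alone. Dusp6, a commonly used readout of FGF and ERK signalling, was at 13.32 ± 0.11 in rNCSC and 13.54 ± 0.32 in pNCSC and did not pass (adjusted p = 0.30).

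Heat shock genes, examined because cell handling can induce them together with FOS genes, were called in both directions. Of 12 tested, 6 were higher in pNCSC (50%, against 33.1% of all genes) and 3 in rNCSC (25%, against 40.2%), with a median of -0.34 against 0.12. The small heat shock genes Hspb1 (at least 122-fold) and Cryab (13.6-fold) and the inducible Hspa1b (log2 difference -4.00, whose probes may also detect the near-identical Hspa1a) were higher in pNCSC. Hspb1 was under 4 on every rNCSC array and was tested through pNCSC alone. The mitochondrial chaperonin genes Hspe1 (2.10-fold) and Hspd1 (1.86-fold) and the HSP90 gene Hsp90aa1 (1.33-fold, limma adjusted p = 0.013) were higher in rNCSC. The part of handling in the FOS and EGR values was not tested.

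The genes with the most similar profiles were found by the root mean square distance over the 6 arrays, after each gene was centred on its own mean. Closest to Fos were Ipmk, Slc20a1 and Atp10d, at distances of 0.10, 0.11 and 0.11 on the log2 scale. Fosl2 was nearest to Sgms2 (0.10), Fst (0.20) and Lpar1 (0.23), Fosl1 to Adam33 (0.13), Ripk3 (0.15) and Mctp2 (0.18), and Junb to Ccn4 (0.11), C1qtnf1 (0.13) and Htr1b (0.14). Atf3 was nearest to Cdc42bpg (0.06), Galnt13 (0.07) and Gclc (0.12), and Fosb to Krt23 (0.11), Mr1 (0.16) and Unc13c (0.16). Egr2 had no neighbour as near, with Mpp6 at 0.26, Selenon at 0.27 and Rpl39l at 0.28, and Egr1 stood at 0.23 to 0.26 from Ppargc1b, Spint2 and Lamtor4. The neighbours of Jun (Ube3b, Rapgef1 and Camk2g, 0.03 to 0.06) and of Jund (Ubac2, Nit1 and Ino80b, 0.04 each) likewise did not pass the test. None of these lists contains another of the 10 factors. The profiles were not scaled, so near neighbours must have a difference between cultures of about the same size. Factors with unlike differences are therefore far apart by this measure, whether or not they vary together.

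**Figure D4:**
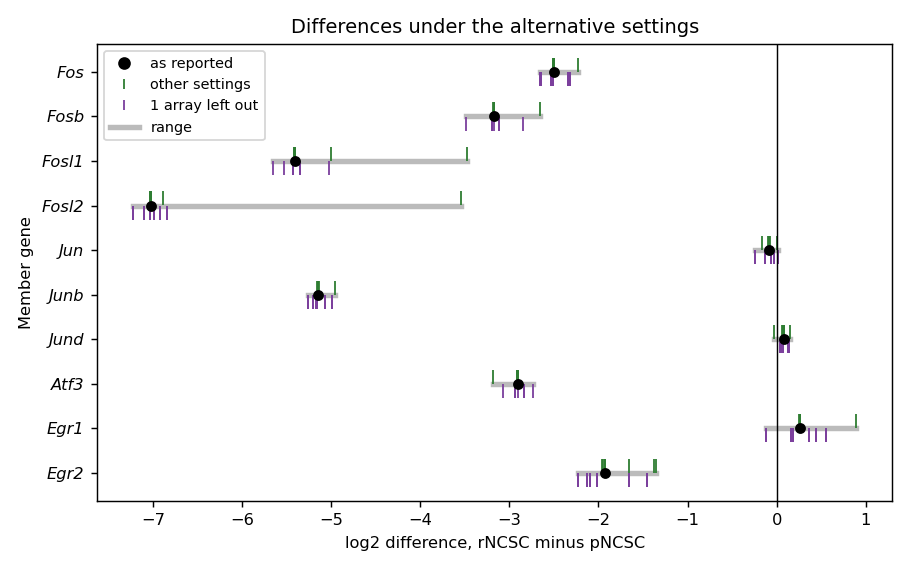
Log2 difference, rNCSC minus pNCSC, of each factor as reported (black), under other settings (green) and with 1 array left out (purple), with the range in grey. The 7 factors higher in pNCSC stay below 0 in all of these, with Fosl1 and Fosl2 reaching -3.48 and -3.54 when their probe sets are averaged, while Egr1 spans -0.12 to 0.89.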

How the data were processed

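The authors deposited log2 values per probe set and array; the submitters' processing notes name GCRMA, with version, settings and genome build not given in the sources used here. That the scale is log2 was taken from the range and quantiles. Such normalization gives all arrays about the same distribution. Signals near the floor depend on the background correction, so the size of the folds of dim genes is uncertain. Precision is limited by 3 arrays per group.

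Gene names came from the platform annotation of the probe sets (34958 with 1 symbol, 932 with several, left out, and 9211 unnamed here). For each gene the probe set with the highest mean was kept, and genes reaching 4 on fewer than 3 arrays were left out. The groups were tested with limma 3.58.1 (lmFit, eBayes) under R 4.3.3, two-sided, without covariates, with Benjamini-Hochberg adjustment over all 11722 genes, and separately over all 21404 single-gene probe sets. With 3 arrays a group, the smallest p of an exact permutation test is 0.1. Folds given as "at least" have arrays under 4 in the lower group set to 4. Where every array of the lower group was under 4, a gene was tested through the other group alone, which fixed its direction. The fit was tested on simulated data. Members and gene lists were chosen with earlier results of these data known. List genes and markers not matched to a single-gene probe set were not analysed here. Named were all members, up to 3 genes per list and direction with the smallest adjusted p and no overlap, the 3 nearest profiles per member, and genes behind counts of 5 or fewer; others, such as members of a list that did not pass, were added after their values were seen. Same-numbered replicates did not deviate together (correlations 0.04, -0.04 and -0.03), so the numbers were not used as pairs.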

Additional observations from a re-analysis of the deposited data

How the results depend on the processing

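Fos, Fosb, Fosl1, Fosl2, Junb, Atf3 and Egr2 kept their direction and passed in every alternative in which they were tested (19 to 23 each); Fosb left the test with the filter at 6. Jun and Jund passed in 0 of 23. With array weights, 1 member gene and 1 member probe set (both Egr1) were called higher in rNCSC, at 0.89 and 0.86. Without 1 array, members higher in pNCSC numbered 4 to 7 and member probe sets 5 to 9, the lower counts arising because 3 bright arrays no longer remained for Fosb, Fosl1 and Atf3. Batf and Mafk were too dim for the filter at 6, where bZIP partners higher in pNCSC numbered 3. The EGR2 targets higher in pNCSC numbered 1 to 2 without 1 array. With the replicate block, 7 members and 9 member probe sets were higher in pNCSC and it changed no other call among the members; over all genes 4445 and 3721 were called higher in rNCSC and pNCSC, against 4717 and 3879. The calls under every scaling tried kept 7 members higher in pNCSC. With the floor at 3, the lower bound became 40.2-fold for the brighter Fosl1 probe set. Fosb and Atf3, with no array under 3, then had their measured folds of 8.99 and 7.47. Fosl2 and Junb were near the floor in rNCSC, so the size of their differences is uncertain.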
